A study of Mus musculus with 2 samples.

Results

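The genes described here encode the actin cytoskeleton and the factors that switch it on: actins, thymosins, calponins, tropomyosins, myosin light chains, focal adhesion proteins, targets of the coactivator YAP, and the regulators Srf, Mrtfa, Mrtfb, Yap1, Wwtr1 and Tead1. They are the rows of the deposited table whose symbol is among 36 named genes. Of these, 35 had a row, out of 17359 genes in all, and each of the 35 had a mean of at least 1 TPM (a transcript level corrected for length and scaled to the same total in each library), as did 12882 genes of the table. Ankrd1, a YAP target of muscle and endothelium, had no row and was not analysed here. The genes were chosen by function with their TPM values and ratios in both libraries already known, so the ratios are a description and carry no test.

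The libraries come from total RNA of mouse neural stem cells, which renew themselves and produce neurons and glia. The siChd4 group received a small interfering RNA (siRNA) by transfection, directed at Chd4, which encodes the ATPase of the chromatin remodelling complex NuRD, and has the genotype label Chd4 knockdown. The siSCR group was given a scrambled siRNA and has the genotype label control. Each group is 1 library, so nothing here can be set against the spread between cultures. The sources used here do not give the strain, age or origin of the cells, nor the siRNA dose or the time until RNA was taken.

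The siChd4 library held 20072009 estimated counts and the siSCR library 19816811. Chd4 itself was at 203 TPM in siChd4 against 249.5 TPM in siSCR, a TPM fold of 0.815 (95% counting interval 0.795 to 0.836), and 80.6% of the 12882 genes had a higher log2 ratio. The log2 ratio of Chd4 was -0.29, and it became -0.11 when the median ratio of genes of similar length was subtracted. The direction follows the label, and the difference is small. Each of 14 neural stem cell markers was detected above 1 TPM in both libraries, with Sox2 at 336 and 314 TPM, Nes at 396 and 328 TPM and Fabp7 at 7004 and 6105 TPM in siChd4 and siSCR. Over all 12882 genes, 6.75% were at least 1.5-fold higher in siChd4 on log2(TPM + 1) and 4.47% lower. Of 10 neuron markers with a mean of at least 1 TPM, 5 were at least 1.5-fold higher in siChd4 and 0 lower, as were 5 and 0 of 8 oligodendrocyte lineage markers. The numbers were 2 and 1 of 14 for the neural stem cell markers, 0 and 2 of 7 for astrocyte markers, and 1 and 0 of 2 for microglia markers. That 1 microglia marker was P2ry12, at 36.1 TPM in siChd4 against 6.84 TPM in siSCR. Of the 7 microglia and macrophage markers with a row, 5 were under 1 TPM in both libraries.

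Actin is held in cells as monomers and as filaments. Thymosins and profilin bind the monomers, cofilin takes filaments apart, and tropomyosins, calponins and filamin coat or crosslink them, while vinculin, talin, paxillin and the parvins tie them to integrins at focal adhesions. Serum response factor (SRF) drives many of these genes through a DNA element called the CArG box. Its coactivators MRTF-A and MRTF-B (genes Mrtfa and Mrtfb) are kept out of the nucleus by free actin monomers. The coactivators YAP (Yap1) and TAZ (Wwtr1) bind TEAD factors and respond to cell tension and density through the Hippo kinases.

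The structural and target genes past a 1.5-fold difference were higher in siChd4 with 1 exception, Parvb, and the regulators past it were lower. Of the 35 genes, 10 were at least 1.5-fold higher in siChd4 and 4 at least 1.5-fold lower, on log2(TPM + 1). The shares over all 12882 genes were 6.75% and 4.47%. At a 2-fold limit, 5 of the 35 were higher and 1 lower, beside 2.26% and 0.629% of all genes. The median log2 ratio was 0.12 over the 35 genes and -0.04 over all genes, and 25 of the 35 lay above 0, as did 44.5% of all genes. Among the 29 structural and target genes the median was 0.26, with 10 higher and 1 lower, and among the 6 regulators it was -0.60, with 0 higher and 3 lower. Summed over the 35 genes, the level was 24174 TPM in siChd4 against 17238 TPM in siSCR, which is 2.42% and 1.72% of each library.

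**Figure D1:**
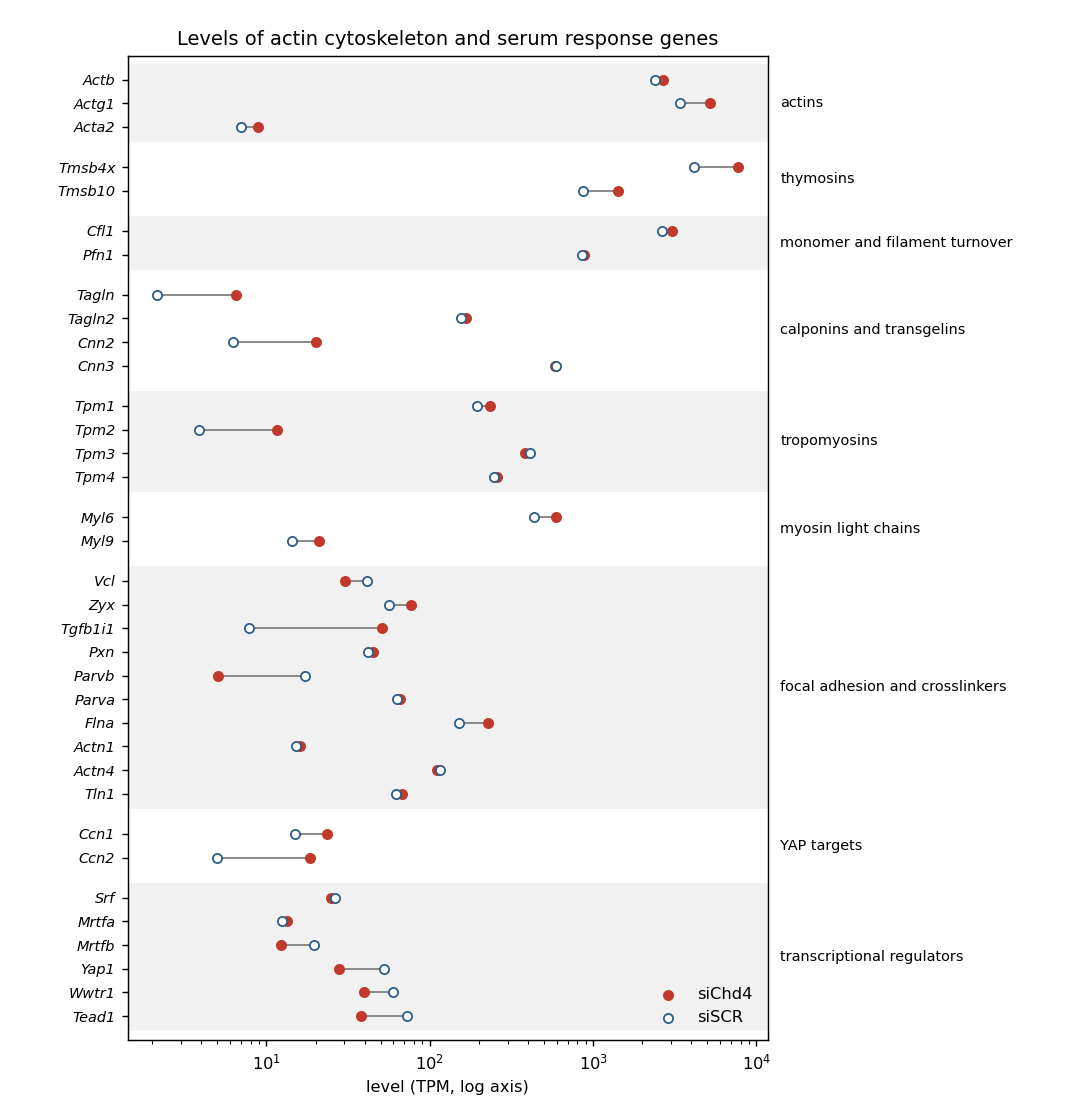
Level of each gene in TPM (log axis) in the siChd4 library (filled red) and the siSCR library (open blue), 1 library each, grouped by role. Tmsb4x, Actg1 and Tgfb1i1 are higher in siChd4, and Parvb, Yap1 and Tead1 are lower.

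The cytoplasmic actins differed unequally. Actg1, gamma actin, was at 5199.7 TPM in siChd4 against 3397 TPM in siSCR, a TPM fold of 1.53 (1.51 to 1.55). Actb, beta actin, was at 2689 TPM in siChd4 against 2386 TPM in siSCR, a fold of 1.13 (1.11 to 1.14). Both are ubiquitous and encode nearly the same protein. Actg1 thus made up 65.9% of their summed TPM in siChd4 and 58.7% in siSCR. They ranked 5 (Actg1) and 20 (Actb) in mean level among the 17359 genes. Acta2, the smooth muscle actin, was at 8.93 TPM in siChd4 against 7.01 TPM in siSCR, and its interval of 0.951 to 1.71 includes 1. Its fold was 1.27 in TPM and its ratio of estimated counts 1.47. The transcript length behind its TPM was 1.09 times as long in siChd4. For Actb, whose length was equal in both libraries, the ratio of estimated counts was 1.19 beside the TPM fold of 1.13.

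The thymosins, small peptides that hold actin as monomers, were both past the 1.5-fold limit. Tmsb4x, X-linked and ranked 4 in mean level, was at 7758 TPM in siChd4 against 4157 TPM in siSCR, a fold of 1.87 (1.84 to 1.90). Tmsb10 was at 1424 TPM in siChd4 against 870.3 TPM in siSCR, a fold of 1.64 (1.57 to 1.71). The ratio of Tmsb4x to the summed Actb and Actg1, all in TPM, was 0.983 in siChd4 and 0.719 in siSCR. The other monomer and turnover genes differed less. Cfl1, cofilin, was at 3044 TPM in siChd4 against 2654 TPM in siSCR (1.15-fold, 1.13 to 1.17). Pfn1, profilin, was at 879.6 TPM in siChd4 against 860.3 TPM in siSCR (1.022-fold, 0.986 to 1.06).

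Within the calponins and transgelins, the scarce members were higher in siChd4 and the abundant ones were nearly equal. Tagln (SM22, a smooth muscle actin binder) was at 6.53 TPM in siChd4 against 2.14 TPM in siSCR, a fold of 3.05 (1.95 to 4.94) from 83.6 and 25.9 estimated counts. Cnn2 was at 20.2 TPM in siChd4 against 6.25 TPM in siSCR, a fold of 3.23 (2.53 to 4.15). Their relatives carried most of the family's transcripts. Tagln2 was at 167 TPM in siChd4 against 156 TPM in siSCR (1.07-fold, 1.003 to 1.15), and Cnn3, the neural calponin, at 588 TPM in siChd4 against 597 TPM in siSCR (0.985-fold, 0.957 to 1.01). The family sum therefore hardly differed, at 782 TPM in siChd4 against 761 TPM in siSCR. The sign of Cnn3 turned positive with 4 of 6 other settings.

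The tropomyosins, rod-like dimers along the filament, had the same arrangement. Tpm2, the scarcest member, was at 11.55 TPM in siChd4 against 3.85 TPM in siSCR, a fold of 3.0 (2.20 to 4.15), with a ratio of estimated counts of 2.73. Tpm1 was at 234 TPM in siChd4 against 196 TPM in siSCR (1.20-fold, 1.14 to 1.26). Tpm3 had 382 TPM in siChd4 against 410.1 TPM in siSCR (0.933-fold, 0.900 to 0.966). Its ratio of estimated counts, not scaled to library size, was 1.04. The log2 ratio of Tpm3 was -0.10 on TPM and 0.01 on CPM (estimated counts scaled to library size, with TMM factors), so its sign turned positive. Tpm4 was at 256 TPM in siChd4 against 249 TPM in siSCR. Tpm2 made up 1.31% of tropomyosin TPM in siChd4 and 0.448% in siSCR, and Tpm3 was the most abundant in both, with 43.2% and 47.8%. The myosin light chains, which sit on the neck of non-muscle and smooth muscle myosin, were both higher but under the 1.5-fold limit. Myl6 was at 589 TPM in siChd4 against 438 TPM in siSCR (1.35-fold, 1.27 to 1.42), and Myl9 at 21.1 TPM in siChd4 against 14.3 TPM in siSCR (1.47-fold, 1.16 to 1.87).

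Smooth muscle and fibroblast genes were looked at beside Tagln, Cnn2, Tpm2 and Acta2. Of 9 smooth muscle markers, 8 had a row. They summed to 62.3 TPM in siChd4 against 54.2 TPM in siSCR, most of it from Smtn (51.9 and 40.7 TPM). Mylk was lower, at 6.86 and 12.01 TPM in siChd4 and siSCR, and was the 1 marker past 1.5-fold of the 2 with a mean of at least 1 TPM. The other markers were low, with Myh11 at 0.30 and 0.09 TPM, Lmod1 at 0.12 and 0.32 TPM and Des at 1.0 and 0.29 TPM in siChd4 and siSCR. Cnn1 and Actg2 were at 1.15 and 0.19 TPM in siChd4, from 13 and 2 counts, and both were listed at 0 in siSCR. The 11 fibroblast markers summed to 211 TPM in siChd4 against 272 TPM in siSCR, most of it from Thy1 (177 and 232 TPM). Of the 11, 6 were under 1 TPM in both libraries. Fn1 was lower, at 10.6 and 16.9 TPM in siChd4 and siSCR, and Fbln1 was at 17.1 and 19.96 TPM. Col1a1 was at 1.96 and 0.64 TPM, Col1a2 at 0.95 and 0.44 TPM and Twist1 at 2.20 and 1.41 TPM. Col3a1 was at 0.07 and 0.22 TPM, from 3 and 9.62 estimated counts. Of the 5 fibroblast markers with a mean of at least 1 TPM, 2 had a log2 ratio above 0 and 3 below, with 1 past 1.5-fold in each direction. Dcn and Lum had 1 and 2 counts in siChd4 and were listed at 0 in siSCR. Endothelial and pericyte markers summed to 7.14 TPM in siChd4 against 4.64 TPM in siSCR. Eng was at 1.87 and 0.98 TPM and Pecam1 at 0.85 and 0.31 TPM in siChd4 and siSCR. Kcnj8 had 2 counts in siChd4 and was listed at 0 in siSCR. All 3 of these markers with a mean of at least 1 TPM lay above 0, and 0 were past 1.5-fold. The part of these cells in the ratios was not tested, and in bulk RNA more cells of a type cannot be told apart from more RNA per cell.

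**Figure D2:**
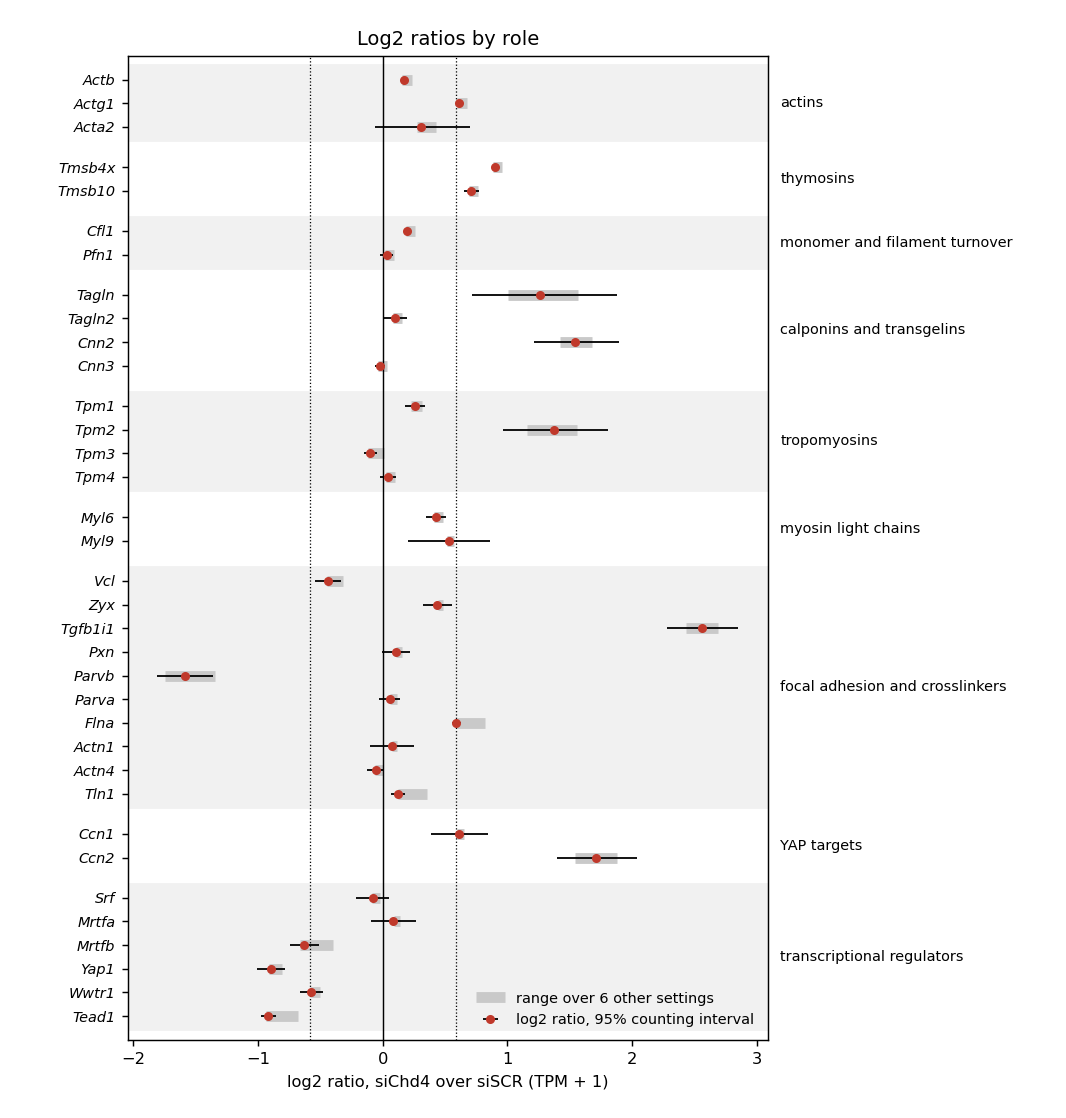
Log2 ratio, siChd4 over siSCR with TPM + 1, for each gene (red), with the 95% counting interval (black line) and the range over 6 other settings (grey bar); dotted lines mark 1.5-fold. Tgfb1i1 at 2.56 and Parvb at -1.59 are the extremes, and no gene past 1.5-fold crosses 0 in any of the 6 settings.

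Focal adhesion genes included both the highest and the lowest ratio. Tgfb1i1 encodes Hic-5, a paxillin relative at focal adhesions that also acts as a nuclear coactivator. It was at 50.8 TPM in siChd4 against 7.79 TPM in siSCR, a fold of 6.52 (5.35 to 8.02), and its log2 ratio of 2.56 ranked 8 of 12882 from the top. Paxillin itself (Pxn) was at 45.2 TPM in siChd4 against 41.9 TPM in siSCR (1.08-fold, 0.997 to 1.17). Hic-5 transcripts were thus 52.9% of the pair's TPM in siChd4 and 15.7% in siSCR.

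Parvb, beta parvin, which binds integrin-linked kinase and actin, stood at the other end. It was at 5.04 TPM in siChd4 against 17.15 TPM in siSCR, a fold of 0.294 (0.244 to 0.353), and ranked 12 of 12882 from the bottom. Its paralog Parva, alpha parvin, was at 65.6 TPM in siChd4 against 63.1 TPM in siSCR (1.04-fold, 0.980 to 1.10). Parvb was 7.13% of the pair's TPM in siChd4 and 21.4% in siSCR.

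The remaining adhesion and crosslinking genes spanned a narrower range. Flna, filamin A, was at 229 TPM in siChd4 against 152 TPM in siSCR (1.51-fold, 1.47 to 1.55), just past the 1.5-fold limit with a log2 ratio of 0.59. Zyx, zyxin, was at 76.7 TPM in siChd4 against 56.4 TPM in siSCR (1.36-fold, 1.25 to 1.47). Vcl, vinculin, went the other way, at 30.1 TPM in siChd4 against 41.2 TPM in siSCR (0.731-fold, 0.680 to 0.786). Its exons overlap those of Ap3m1 on the opposite strand by up to 2090 bases, and whether reads were assigned by strand is not given. Talin (Tln1) was at 67.3 TPM in siChd4 against 61.7 TPM in siSCR. The alpha actinins were nearly equal, with Actn1 at 16.1 TPM in siChd4 against 15.2 TPM in siSCR, and Actn4 at 111 TPM in siChd4 against 116 TPM in siSCR. The sign of Actn4 turned positive with the length trend subtracted and on FPKM.

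**Figure D3:**
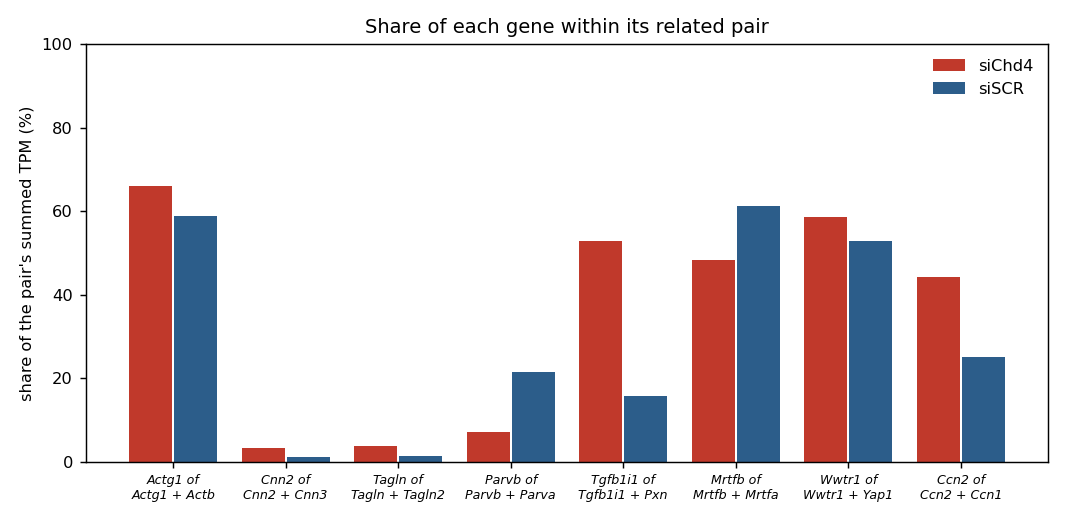
Share of the first-named gene in the summed TPM of a related pair (%), in siChd4 (red, left) and siSCR (blue, right), 1 library each. Hic-5 (Tgfb1i1) made up 52.9% of its pair with Pxn in siChd4 against 15.7% in siSCR, and Parvb 7.13% of its pair with Parva against 21.4%.

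The YAP targets of the list were higher in siChd4. Ccn2 (connective tissue growth factor), a secreted matrix protein, was at 18.6 TPM in siChd4 against 5.0 TPM in siSCR, a fold of 3.72 (2.95 to 4.72). Ccn1 (Cyr61), its relative, was at 23.5 TPM in siChd4 against 15.0 TPM in siSCR, a fold of 1.56 (1.33 to 1.85). Both genes are also known SRF targets.

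The regulators themselves did not share that direction. Yap1 was at 27.95 TPM in siChd4 against 52.8 TPM in siSCR, a fold of 0.530 (0.488 to 0.575). Tead1, the DNA-binding partner, was at 37.9 TPM in siChd4 against 72.4 TPM in siSCR, a fold of 0.524 (0.501 to 0.547). Wwtr1, which encodes TAZ, was at 39.55 TPM in siChd4 against 59.3 TPM in siSCR (0.667-fold, 0.625 to 0.713), just short of the limit with a log2 ratio of -0.57. On the SRF side, Srf was at 24.85 TPM in siChd4 against 26.3 TPM in siSCR (0.943-fold, 0.858 to 1.04), and Mrtfa at 13.3 TPM in siChd4 against 12.5 TPM in siSCR (1.06-fold, 0.931 to 1.22). Both intervals include 1. Mrtfb was at 12.35 TPM in siChd4 against 19.65 TPM in siSCR (0.628-fold, 0.575 to 0.686). Its log2 ratio of -0.63 became -0.40 with the length trend subtracted and -0.53 on FPKM, both short of the 1.5-fold limit. Summed, the 6 regulators were at 156 TPM in siChd4 against 243 TPM in siSCR, and the 2 YAP targets at 42.1 TPM in siChd4 against 20.02 TPM in siSCR.

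Transcript length moved with these ratios. The regulators have effective lengths of 3.91 to 9.79 kb, and the 3886 genes in that range had a median log2 ratio of -0.12, with 5.33% at least 1.5-fold higher and 5.46% lower. Of the 35 genes, the 4 under 1 kb had a median of 0.57 and the 17 from 1 to 3 kb one of 0.44, beside 0.02 and 0.003 for all genes of those lengths. The 14 of 3 kb or more had a median of -0.07, beside -0.09 for all genes. Across the 35 genes the Spearman correlation of log2 ratio with length was -0.56, and across the 29 structural and target genes -0.39. Across all 12882 genes it was -0.18, and genes of 1 pair of libraries are not independent. Flna, at 8.31 kb, lay above 0. With the median of 20 length bins subtracted, 10 of the 35 genes were still at least 1.5-fold higher and 3 lower. The shares over all genes on that scale were 7.38% and 3.33%. Yap1 was at -0.83 and Tead1 at -0.68. The part of length in the remaining differences was not tested.

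**Figure D4:**
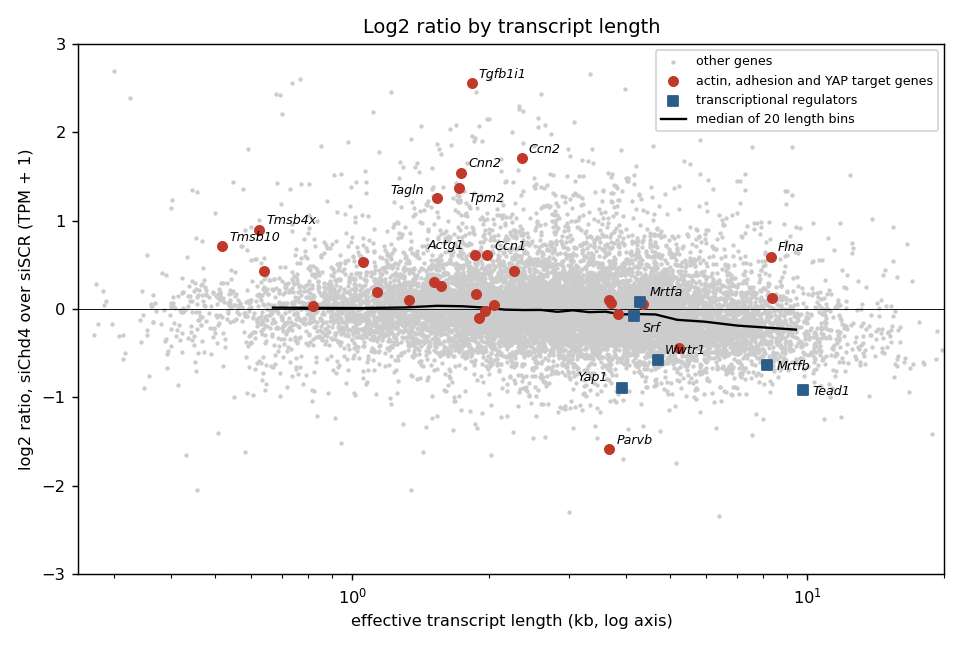
Log2 ratio of siChd4 over siSCR (TPM + 1) against effective transcript length in kb (log axis) for the 35 genes, split into regulators (blue squares) and the rest (red), over all genes with a mean of at least 1 TPM (grey; some lie outside the axis limits), with the median of 20 length bins (line). Yap1 and Tead1 lie below the line, and Tgfb1i1, Ccn2 and Cnn2 far above it.

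Promoter sequences were read for the SRF element. RefSeq windows of 300 bases, from 250 before to 50 after an annotated start (build GRCm38.p6), were found for 28 of the 35 genes. A CArG box, searched by its consensus on both strands, was present in 6 of these 28 genes (21.4%), beside 1.81% of 27025 genes with a window. The list was drawn up partly from known SRF and YAP targets, and that choice can itself raise the share. The 6 are shown because they are the genes of the group with the letters SRF is known to bind, with the box in capitals and only bases before the start printed. A window at the outermost start of the gene was found for 14 of the 28 genes. The starts used for Myl6 and Srf lie 877 and 2105 bases inside the gene, those of Myl9 and Vcl 56 and 15 bases inside, and those of Actg1 and Cnn2 are the outermost ones.
Actg1, chr11:120348536-120348625, minus strand: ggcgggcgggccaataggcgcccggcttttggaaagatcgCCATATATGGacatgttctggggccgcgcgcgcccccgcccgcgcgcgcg
Cnn2, chr10:79988504-79988593, plus strand: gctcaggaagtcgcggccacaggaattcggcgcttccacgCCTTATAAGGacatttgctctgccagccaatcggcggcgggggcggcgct
Myl6, chr10:128493010-128493099, minus strand: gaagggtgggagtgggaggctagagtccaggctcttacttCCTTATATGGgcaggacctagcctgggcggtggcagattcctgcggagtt
Myl9, chr2:156775263-156775352, plus strand: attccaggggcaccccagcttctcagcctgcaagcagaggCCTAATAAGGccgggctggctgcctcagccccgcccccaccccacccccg
Vcl, chr14:20929148-20929220, plus strand: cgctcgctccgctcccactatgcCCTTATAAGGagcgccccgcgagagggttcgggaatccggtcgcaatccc
Srf, chr17:46556175-46556284, minus strand: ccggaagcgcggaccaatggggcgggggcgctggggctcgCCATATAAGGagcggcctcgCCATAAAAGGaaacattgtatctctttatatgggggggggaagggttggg
Srf, which is known to be bound by its own product, held 2 boxes, 82 and 62 bases before the annotated start of its window. The box lay 90 bases before that start in Actg1, 56 in Cnn2, 50 in Myl6, 161 in Myl9 and 227 in Vcl. The log2 ratios of these 6 genes ran from -0.44 (Vcl) to 1.55 (Cnn2), with Actg1 at 0.61, Myl9 at 0.53, Myl6 at 0.43 and Srf at -0.08, so genes with the box lay on both sides of 0. Absence of a match in the other 22 genes says only that the letters are not in these bases.

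The core of the TEAD motif, CATTCC on either strand, was present in 11 of the 28 genes (39.3%), beside 16.6% of all genes with a window. Here too the choice of known targets can raise the share. Windows of a target and of the YAP and TAZ genes are shown, with the core in capitals as read on the gene's strand.
Ccn1, chr3:145650063-145650108, minus strand: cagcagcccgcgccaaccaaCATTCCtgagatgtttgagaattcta
Yap1, chr9:8004712-8004757, minus strand: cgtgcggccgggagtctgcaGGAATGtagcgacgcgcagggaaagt
Wwtr1, chr3:57576021-57576066, minus strand: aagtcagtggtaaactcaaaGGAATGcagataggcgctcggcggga
Ccn1 and Wwtr1 have a window at the outermost start, and the start of the Yap1 window is 42 bases inside the gene. Ccn1, the YAP target with a window, had its core 103 bases before the start and a log2 ratio of 0.61. Yap1 (-0.89), Wwtr1 (-0.57), Mrtfb (-0.63), Acta2, Actn4, Flna, Pfn1, Tagln2, Tpm1 and Vcl also had it, so higher and lower genes both carried the letters. Vcl was the 1 gene with both elements, and they did not overlap.

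Related genes of the same pathways, listed by function, were set beside these genes. Of the 19 named from them for passing 1.5-fold, 10 fell short of that limit in at least 1 other setting. They were Mylk, Fosl1, Elk3, Crim1, Amot, Tead2, Nf2, Fmnl2, Itgav and Tns2, and none of the 19 turned its sign. Counts in each list stand beside 6.75% of all genes higher and 4.47% lower. Of 24 other SRF targets of the actomyosin kind, 19 had a mean of at least 1 TPM. Their median was 0.09, with 2 at least 1.5-fold higher (10.5%) and 1 lower (5.26%). Actc1, cardiac actin, was at 4.08 TPM in siChd4 against 0.21 TPM in siSCR, from 48.0 and 2.37 estimated counts, and its ratio of 19.4 has a counting interval of 5.09 to 165. Flnc, the muscle filamin, was at 10.01 TPM in siChd4 against 5.64 TPM in siSCR (1.77-fold, 1.57 to 2.01). Mylk, the myosin light chain kinase, was lower, at 6.86 TPM in siChd4 against 12.01 TPM in siSCR (0.571-fold, 0.503 to 0.648).

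The immediate early SRF targets, which answer to ternary complex factors, had a median of 0.35, with 9 of 10 above 0, 2 at least 1.5-fold higher and 0 lower. Arc, of activity-dependent signalling, was at 71.8 TPM in siChd4 against 41.65 TPM in siSCR (1.72-fold, 1.59 to 1.87), and Fosl1, an AP-1 subunit, at 2.10 TPM in siChd4 against 0.98 TPM in siSCR (2.14-fold, 1.08 to 4.49). Among those factors, Elk4 was at 11.7 TPM in siChd4 against 23.7 TPM in siSCR (0.493-fold, 0.431 to 0.563). Elk3 was at 34.35 TPM in siChd4 against 53.3 TPM in siSCR (0.644-fold, 0.597 to 0.695). Elk1 went the other way, at 28.4 TPM in siChd4 against 21.7 TPM in siSCR (1.31-fold, 1.18 to 1.46). Of 4 SRF cofactors, 2 were at least 1.5-fold lower and 0 higher, and 2 lay above 0. 

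Other YAP and TEAD targets lay mostly near 0. Of 19 with a mean of at least 1 TPM, 2 were at least 1.5-fold higher (10.5%) and 1 lower (5.26%), with a median of -0.01. Nt5e, an ectonucleotidase, was at 11.5 TPM in siChd4 against 4.34 TPM in siSCR (2.64-fold, 2.14 to 3.28), and Fjx1 at 174 TPM in siChd4 against 112 TPM in siSCR (1.55-fold, 1.47 to 1.64). Crim1 was lower, at 17.6 TPM in siChd4 against 28.2 TPM in siSCR (0.623-fold, 0.568 to 0.683). Hippo kinases and TEAD partners had a median of -0.30, with 0 of 13 higher and 4 lower. Tead2 was at 46.8 TPM in siChd4 against 72.9 TPM in siSCR (0.642-fold, 0.587 to 0.702). Also lower were the kinase cofactor Mob1b (25.2 and 40.9 TPM in siChd4 and siSCR) and the YAP binder Amot (18.6 and 29.95 TPM). Nf2, an upstream tumour suppressor, was lower too (67.1 and 103 TPM). It belonged to the list and to its counts, and only its naming was decided after its value was seen. The transcript length behind the TPM of Nf2 was 1.14 times as long in siChd4, and its log2 ratio of -0.61 was -0.40 on CPM.

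The general machinery of actin assembly had a median log2 ratio near 0, with single genes from -0.74 to 0.40. Of 27 nucleation and turnover genes, 0 were higher and 2 lower (7.41%), Arpc5 of the Arp2/3 complex (128 TPM in siChd4 against 213 TPM in siSCR) and the formin Fmnl2 (81.8 TPM in siChd4 against 129 TPM in siSCR), with a median of 0.003. Of 23 other integrin adhesion genes, 2 were higher (8.70%) and 1 lower (4.35%), with a median of -0.08. Lims2 (PINCH2), a partner of the parvin complex, was at 2.13 TPM in siChd4 against 0.46 TPM in siSCR (4.63-fold, 1.90 to 13.6), Tns2 at 4.06 TPM in siChd4 against 2.23 TPM in siSCR, and Itgav, integrin alpha V, at 73.0 TPM in siChd4 against 111 TPM in siSCR.

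**Figure D5:**
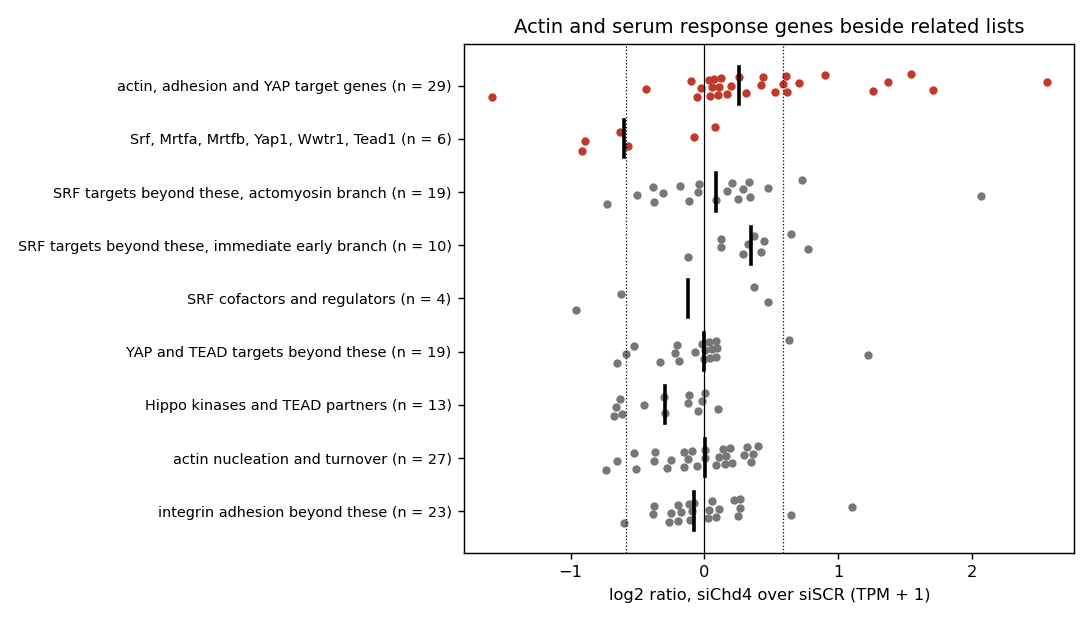
Log2 ratios of siChd4 over siSCR (TPM + 1) of single genes (points) and their median (bar) for the 29 structural and target genes, the 6 regulators and 7 related lists (grey); dotted lines mark 1.5-fold. The medians are 0.26 and -0.60 for the structural genes and the regulators, and from -0.30 to 0.35 for the related lists.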

How the data were processed

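Total RNA was sequenced from 1 siChd4 and 1 siSCR library. The authors deposited FPKM (fragments relative to transcript length and depth) and TPM for each library, per the file headers. The deposited read counts are estimated counts: of the values above 0, 14.3% in siChd4 and 12.2% in siSCR were exactly whole as written, and the others carried decimals. The submitters' processing notes name mm39 as the genome build. The sources used here do not give the aligner, the counter or the use of strand, so reads of near-identical paralogs and pseudogenes (actins, thymosins, Cfl1, Pfn1, Tpm3, Myl6) may be divided between copies.

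Ratios are log2, siChd4 over siSCR, with a pseudocount of 1 added to TPM, which understates differences of low genes. They cover 12882 genes whose mean TPM was 1 or more. Folds are of TPM itself. Intervals are exact Clopper-Pearson at 95% from counts rounded to whole numbers, scaled to the TPM fold, and cover counting error only, since reads are not independent molecules. With 1 library per group no test was made. A floor of 3 counts is 0.149 CPM in siChd4 and 0.151 CPM in siSCR. Effective length is estimated counts over FPKM and the library total.

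The 36 genes, 7 related lists and 8 marker lists were chosen with earlier results of these data known; 1 further related list is not reported here. Besides every listed gene and Chd4, up to 3 genes per direction past 1.5-fold were named from each related list. Nf2, past 1.5-fold, and Elk1, short of it, belonged to their lists and were also named after their values were seen. Alternatives were upper quartile and median-of-ratios scaling, a pseudocount of 0.1, FPKM, CPM with TMM factors (edgeR 4.0.16, for scaling only), subtraction of the length trend, dropping the filter or raising it to a mean TPM of 5, and a 2-fold limit; leaving out the regulators was added later. The calculation was tested on simulated data. Promoter windows come from RefSeq (GRCm38.p6), which differs from mm39, so they were matched by Entrez number and used for sequence only. Python 3.11.15, scipy 1.17.1 and R 4.3.3 were used.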

Additional observations from a re-analysis of the deposited data

How the results depend on the processing

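Of the 14 genes past 1.5-fold, 13 stayed past it in each of 6 other settings (upper quartile and median-of-ratios scaling, a pseudocount of 0.1, FPKM, CPM with TMM factors, length trend subtracted), and the exception was Mrtfb. The signs of Cnn3, Tpm3 and Actn4, all near 0, differed in some of them. Over 55 genes, 285 of 330 values lay within the counting interval, and none past 1.5-fold turned its sign. Of 19 related genes named for passing 1.5-fold, 10 did not stay past it in every setting. A 2-fold limit, stricter by construction, left 5 genes higher and 1 lower. Without the 6 regulators, an alternative added after the data were seen, 1 gene was lower and the median was 0.26. Ratios of summed levels, siChd4 over siSCR, shifted with the unit: on FPKM and on CPM with TMM factors they were 1.42 and 1.40 for actins, 1.90 and 1.88 for thymosins, 1.16 and 1.15 for cofilin and profilin, 1.073 and 1.076 for tropomyosins and 1.27 and 1.26 for adhesion genes. On FPKM they were 1.07 for calponins and transgelins and 0.668 for the regulators. FPKM differs from TPM by 1 factor per library. Scaling moved the median of all genes by at most 0.05. Counting intervals are widest for Tagln, Tpm2 and Acta2 among the 35 genes and for Actc1, Lims2 and Fosl1 among the related genes named. No paired analysis was possible because there was 1 library on each side, and leaving out a library was not possible for the same reason.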

Other observations

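Over all genes with a promoter window and a mean of at least 1 TPM, the CArG box was found in 175 of 10330. Of these, 6.86% were at least 1.5-fold higher in siChd4 and 6.86% lower, beside 6.23% and 4.42% of the 10155 without it, and the medians were -0.01 and -0.04. The TEAD core was found in 1489 genes, of which 8.46% were higher and 3.76% lower, beside 5.87% and 4.58% of the 8841 without it. These shares were looked at after the ratios were known, and base composition and length were not matched.

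In GENCODE M21, exons of 6 of the 36 genes overlap, on the opposite strand, those of another gene of the table. The largest overlap, 2090 bases, is that of Vcl and Ap3m1 (68.2 TPM in siChd4 and 80.25 TPM in siSCR). Tln1 overlaps Creb3 (74.98 TPM in siChd4 and 45.3 TPM in siSCR) by 91 bases. Tagln overlaps Pcsk7 (29.8 TPM in siChd4 and 26.9 TPM in siSCR) by 94 bases, and Mrtfa overlaps Sgsm3 by 10 bases. The partners of Zyx and Actn4, Epha1 and Capn12, were under 1 TPM in both libraries. How reads in the shared bases were counted was not tested.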
